A study of Mus musculus with 3 samples.

Results

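The nuclear genes for subunits of the mitochondrial respiratory chain were followed in macrophages of the mouse sciatic nerve, before and after the nerve was crushed. Genes were taken by symbol, as nuclear genes whose names begin with Nduf, Cox4 to Cox8, Uqcr or Atp5, together with Sdha, Sdhb, Sdhc and Sdhd. Of 27998 genes in the tables, 92 had such a symbol. Of these, 83 reached at least 10 CPM in any library and are the genes described here. CPM is the number of UMIs of a gene per 1000000 UMIs of the library, and a UMI is a tag that counts each captured RNA molecule once. The 83 genes held 76 subunits and 7 genes whose names fit but whose products are not subunits. The subunits were all 36 matched genes of complex I, all 4 of complex II, all 8 of complex III, 13 of 19 of complex IV and all 15 of complex V. The 13 subunits encoded by mitochondrial DNA, whose symbols begin with mt-, served as the reference.

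The data were 3 single-cell libraries of sciatic nerve macrophages from C57BL/6 mice, a common inbred strain, made with the first version of the 10x Genomics droplet chemistry. The steady-state library came from nerve that had not been crushed. The others came from injured nerve, on day 1 or day 5 of the response to nerve crush, which cuts through the axons inside a sheath that stays whole. Age, sex, the number of animals pooled and the sorting of the cells were not given in the sources used here. With 1 library per condition there was no replicate and no test, so every ratio compares libraries. Intervals are 95% intervals of counting error alone.

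The respiratory chain lies in the inner mitochondrial membrane. Complex I takes electrons from NADH and complex II takes them from succinate, complex III passes them on to cytochrome c, and complex IV hands them to oxygen. Complexes I, III and IV pump protons, and complex V, the ATP synthase, uses the proton gradient to make ATP. Complexes I, III, IV and V are built from nuclear and mitochondrial gene products together, while complex II is wholly nuclear. Macrophages are known to shift between respiration and glycolysis as they change state.

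After filtering, 728, 2793 and 2059 cells were used from steady state, day 1 and day 5, with 1656510, 7963091 and 5524496 UMIs. Median UMIs per cell were 2238.5, 2555 and 2473. Only 2, 3 and 11 cell barcodes were shared between day 1 and steady state, day 5 and steady state, and day 5 and day 1. The 8 macrophage markers summed to 39213, 25192 and 37631 CPM with none at 0, which fits the labelled cell type. Lyz2 alone was at 20923.5, 19495.6 and 24195.5 CPM, so these sums rest largely on that marker. Whether the label fits equally in all libraries was not tested. The 5 monocyte markers summed to 47.1, 2341 and 752 CPM and the 4 Cd209 lectin markers to 3018, 54.6 and 180 CPM, and both lists are returned to below. The 6 Schwann cell markers summed to 388, 94.9 and 105 CPM and the 6 fibroblast markers to 116, 235 and 150 CPM. The 7 dendritic cell markers summed to 196, 24.4 and 52.9 CPM, the 6 neutrophil markers to 126, 86.3 and 37.65 CPM. The 4 B cell markers summed to 48.3, 9.54 and 27.15 CPM. The 5 skeletal muscle markers stayed between 1.81 and 5.97 CPM, and the 3 measured T cell markers summed to 0, 0 and 1.45 CPM. These sums differ between the libraries along with the respiratory chain genes, and their part in the results was not tested. In such sums, fewer cells of a type and less RNA per cell cannot be told apart.

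The nuclear subunits took up more of the captured RNA after crush, and the mitochondrially encoded subunits did not follow. Summed over the 76 nuclear subunits, the level was 16258 CPM in steady state, 27755 CPM on day 1 and 24725 CPM on day 5. The day 1 sum was 1.71-fold that of steady state (interval 1.69 to 1.73), and the day 5 sum was 1.52-fold (1.50 to 1.54). The 13 mt- genes summed to 4700 CPM in steady state, 3444 CPM on day 1 and 4965 CPM on day 5. Their day 1 ratio was 0.733 (0.715 to 0.752), the opposite direction to the nuclear genes, and their day 5 ratio was 1.06 (1.03 to 1.08).

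At day 1, 55 of the 83 genes stood at least 1.5-fold above steady state and 5 at least 1.5-fold below, namely Cox6b2, Cox7a2l, Sdha, Ndufaf7 and Atp5sl. Of all 7196 genes past 10 CPM, 29.9% were that much higher and 24.5% that much lower. At a limit of 2-fold the counts were 26 above and 4 below, beside 16.6% and 14.6% of all genes. The median log2 ratio of the 83 genes was 0.74, beside 0.12 over all genes. At day 5, 42 stood at least 1.5-fold above steady state and 2 below, Cox6b2 and Sdha, where 22.2% and 20.5% of all genes did, and the median was 0.60 beside 0.03. The counts at 2-fold were 7 and 1, beside 10.9% and 10.6%. Both comparisons share the steady-state library. Day 5 against day 1 showed small differences, with 3 genes at least 1.5-fold above day 1 and 5 below, where 13.6% and 16.2% of all genes were, and a median of -0.17 beside -0.08. The 3 higher genes, Cox7a2l, Cox6b2 and Atp5sl, all passed 2-fold and none was lower by that much, beside 5.92% and 5.43% of all genes. The 5 lower genes were Ndufs4, Ndufb6, Ndufs1, Uqcrb and Cox7a1. Of the 83, Cox6b2 passed the 10 CPM minimum only through steady state and Ndufaf6 only through day 1, so these genes had to differ.

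Short transcripts as a whole were also higher after crush, and many subunit genes are short. Among genes past 50 CPM with a transcript of up to 1000 bases in the GENCODE annotation, leaving out the members and the ribosomal proteins, 137 of 263 were at least 1.5-fold higher at day 1, with a median log2 ratio of 0.64. The subunits of that length had 26 of 34 higher and a median of 0.83. At day 5 the medians were 0.42 and 0.68. The 39 subunits with longer transcripts had a median of 0.64 at day 1, with 24 at least 1.5-fold higher. All genes past 50 CPM with longer transcripts, subunits included, were split into classes by length. From the shortest class to the longest, their day 1 medians were 0.18, 0.21 and 0.19. In these classes 248 of 802, 350 of 1091 and 194 of 599 genes were at least 1.5-fold higher. Length is that of the longest annotated transcript, so a gene classed as longer may also have shorter transcripts. The part of transcript length in the differences was not tested.

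The size of these differences depends on the scaling. Median-of-ratios size factors, which centre on the middle gene, lowered every log2 ratio by 0.26 for day 1 and by 0.12 for day 5 against steady state, and raised those of day 5 against day 1 by 0.14. The counts then became 36 higher and 6 lower at day 1, 29 and 4 at day 5, and 5 and 2 for day 5 against day 1. The median over all genes moved as well, from 0.12 to -0.14 at day 1 and from 0.03 to -0.09 at day 5. For day 5 against day 1 it moved from -0.08 to 0.06. The shares of all genes past 1.5-fold were not computed by that scaling, so these counts have no such share beside them. The log2 ratio of the summed mt- genes at day 1 was -0.45 by CPM and -0.71 by that scaling. A log2 ratio at day 1 between 0 and 0.26 therefore has no settled sign.

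**Figure D1:**
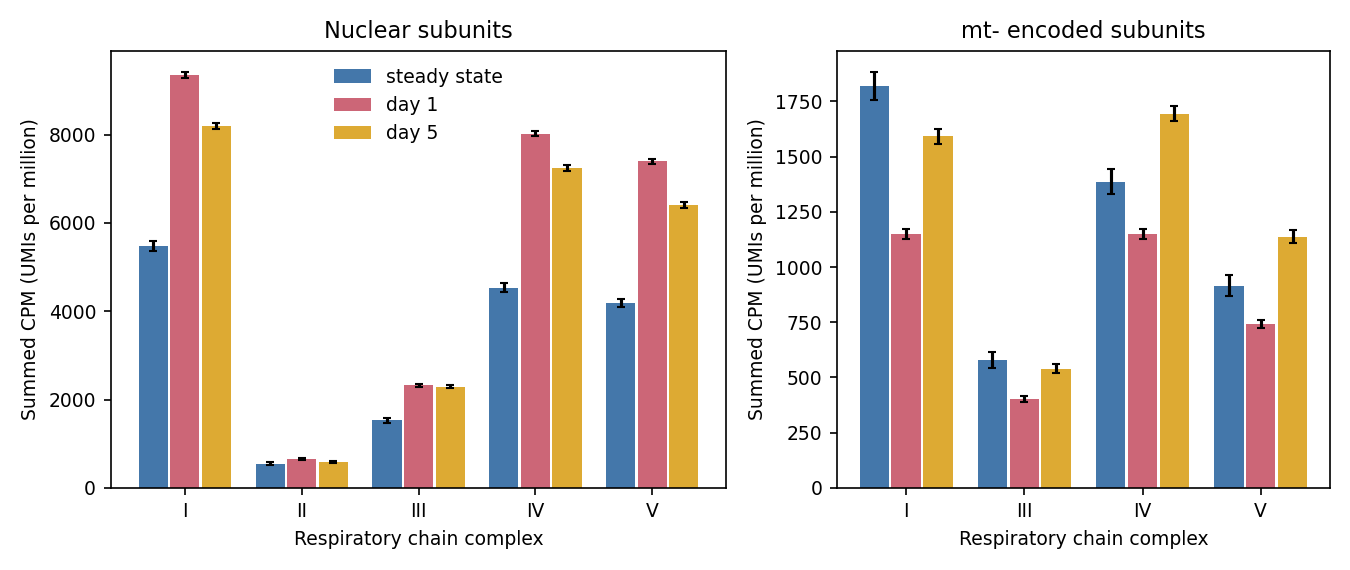
Summed CPM of the nuclear subunits of complexes I to V (left) and of the mt- encoded subunits of complexes I, III, IV and V (right) in the 3 libraries, with bars starting at 0 and error bars showing exact 95% Poisson intervals. Nuclear sums are lowest in steady state for all 5 complexes, while the mt- sums are lowest at day 1 for all 4 complexes shown.

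Complex I, the NADH dehydrogenase and largest of the complexes, had 36 nuclear genes past the minimum. Their sum was 5470 CPM in steady state, 9359 CPM on day 1 and 8197 CPM on day 5. In the same order of libraries, used for all such series of values below, this is a ratio of 1.71 (1.67 to 1.75) at day 1 and of 1.50 (1.47 to 1.53) at day 5. On day 1, 25 of the 36 passed 1.5-fold upwards, and by day 5 this was so for 18, with none past it downwards at either time. Here and for the complexes below, such counts stand beside 29.9% of all genes higher and 24.5% lower at day 1. At day 5 the shares of all genes were 22.2% and 20.5%. The 7 nuclear core subunits, which carry the flavin and iron-sulfur centres, differed less than the accessory subunits around them. The core subunits summed to 1.35-fold (1.27 to 1.43) at day 1 with a median log2 ratio of 0.64, and the other 29 to 1.77-fold (1.73 to 1.81) with a median of 0.90.

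Ndufs4, an accessory subunit at the matrix arm whose loss causes complex I deficiency, had the highest day 1 ratio among the subunits. It was at 54.3 CPM in steady state (43.7 to 66.8), 178 CPM on day 1 (169 to 187) and 96.8 CPM on day 5 (88.8 to 105). The day 1 ratio was 3.28 (2.65 to 4.10) and the day 5 ratio 1.78 (1.42 to 2.25), so day 5 lay between the other libraries. Ndufb6, an accessory subunit of the membrane arm, was at 67.6, 215 and 130 CPM, with ratios of 3.19 (2.63 to 3.89) and 1.92 (1.57 to 2.36). These were also among the few subunits at least 1.5-fold lower at day 5 than at day 1, Ndufs4 by 1.84-fold (1.66 to 2.03) and Ndufb6 by 1.66-fold (1.52 to 1.81).

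Other accessory subunits were at least 1.5-fold above steady state at both times. Ndufc2, of the membrane arm, was at 142, 296 and 285 CPM, with a day 5 ratio of 2.0 (1.74 to 2.30), and its interval of day 5 against day 1 includes 1 (0.904 to 1.03). Ndufv3, a small accessory subunit near the NADH site, was at 126, 294 and 261 CPM, with a day 5 ratio of 2.07. Ndufb8, whose protein is widely used as a sign of assembled complex I, was at 295, 652 and 488 CPM, lower at day 5 than at day 1 (ratio 0.749, 0.715 to 0.785).

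At the other end, 3 complex I genes had small ratios to steady state. Ndufa6 was at 267 CPM in steady state, 258 CPM on day 1 and 310 CPM on day 5, with a day 1 ratio of 0.968 (0.873 to 1.07). Ndufs7, a core subunit that carries an iron-sulfur cluster next to the ubiquinone site, was at 253, 273 and 262 CPM. Ndufa9, an accessory subunit at the junction of the arms, was at 82.7, 98.8 and 76.9 CPM, and its intervals against steady state include 1 at both times (0.996 to 1.44 and 0.766 to 1.14).

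Complex II, succinate dehydrogenase, is also an enzyme of the citric acid cycle, and its sum over all cells differed less from steady state than those of the other complexes. The 4 genes summed to 541.5 CPM in steady state, 656 CPM on day 1 and 590 CPM on day 5. The ratios were 1.21 (1.13 to 1.30) and 1.09 (1.01 to 1.17), below those of complexes I, III, IV and V, whose intervals at day 1 all begin above 1.45. By median-of-ratios scaling the log2 ratio of the complex II sum was near 0, at 0.016 on day 1 and 0.0038 on day 5.

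The 4 complex II genes did not share a direction. Sdha, the flavoprotein that oxidizes succinate, was at 91.2 CPM in steady state (77.2 to 107), 54.0 CPM on day 1 (49.0 to 59.4) and 58.6 CPM on day 5 (52.4 to 65.4). It was 1.69-fold lower at day 1 (1.39 to 2.04) and 1.55-fold lower at day 5 (1.27 to 1.89). Its partner Sdhb, the iron-sulfur subunit, went the other way, at 228, 355 and 304 CPM, 1.55-fold higher at day 1 (1.39 to 1.73). The membrane anchors Sdhc and Sdhd were at 99.0, 99.3 and 74.9 CPM and at 123, 148 and 152 CPM. The day 1 interval of Sdhc includes 1 (0.847 to 1.19), and at day 5 it was 1.32-fold lower (1.10 to 1.59).

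Complex III, the cytochrome bc1 complex, had 8 nuclear genes past the minimum, which summed to 1529, 2322 and 2292 CPM. At least 1.5-fold higher levels were found for 3 of 8 on day 1 and 5 of 8 on day 5, with no gene lower by that much. The day 1 count is near the share of 29.9% over all genes, and the share at day 5 was 22.2%. Uqcrq, a small subunit that binds ubiquinone, was at 219, 505 and 402 CPM, a ratio of 2.31 (2.07 to 2.58) at day 1. Uqcrb was at 29.0, 72.5 and 46.5 CPM, 2.50-fold higher at day 1 (1.86 to 3.43) from 48 UMIs in steady state.

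Uqcrc2 and Uqcrc1 encode the large core proteins of complex III. Uqcrc2 was at 88.7 CPM in steady state, 70.3 CPM on day 1 and 62.4 CPM on day 5, 1.26-fold lower at day 1 (1.04 to 1.52) and 1.42-fold lower at day 5 (1.16 to 1.73). Uqcrc1 was at 164, 192 and 165 CPM. Uqcrh, the hinge protein near cytochrome c1, was highest at day 5, at 367, 439 and 603 CPM, and its day 5 ratio was 1.64 (1.51 to 1.80).

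Complex IV, cytochrome c oxidase, had 13 genes past the minimum, with Ndufa4 counted here because its product is a subunit of this complex. They summed to 4533, 8022 and 7247 CPM, with ratios of 1.77 (1.73 to 1.81) and 1.60 (1.56 to 1.64). On day 1, 12 of 13 passed 1.5-fold upwards and the remaining gene, Cox6b2, downwards, and by day 5 the counts were 8 and 1. Cox6b2 passed the 10 CPM minimum only through steady state, so it had to be lower in the other libraries. Cox7a2 was at 177 CPM in steady state (157 to 198), 494 CPM on day 1 (478 to 509) and 404 CPM on day 5 (388 to 421), 2.79-fold higher at day 1 (2.48 to 3.15) and 2.29-fold at day 5 (2.02 to 2.59). Cox5a, which lies on the matrix side of the enzyme, was at 209, 537 and 389 CPM, 2.56-fold higher at day 1 (2.30 to 2.87).

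Several complex IV genes sat close to the 1.5-fold line. Cox4i1, the nuclear subunit with the highest level, was at 1126, 1698 and 1820 CPM, with ratios of 1.51 (1.44 to 1.58) and 1.62 (1.54 to 1.70). Cox7c was at 432, 653 and 603 CPM and Cox8a at 581, 881 and 891 CPM. Ndufa4 was at 304, 462 and 345 CPM, so its day 5 ratio was only 1.14 (1.03 to 1.26). Cox6c kept its day 1 level, at 304, 653 and 632 CPM.

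Complex V, the ATP synthase, had 15 genes past the minimum, which summed to 4185, 7395 and 6398 CPM, with ratios of 1.77 (1.72 to 1.81) and 1.53 (1.49 to 1.57). The 1.5-fold line was passed upwards by 11 of 15 on day 1 and 8 of 15 on day 5, and downwards by none. The 5 genes of the catalytic head and its central stalk had a median log2 ratio of 0.35 at day 1 and summed to 1.49-fold (1.43 to 1.55). Of them, 2 of 5 were at least 1.5-fold higher, beside 29.9% of all genes. The other 10, which build the membrane ring, the side stalk and the dimer interface, had a median of 0.96, with 9 of 10 higher, and summed to 1.93-fold (1.87 to 1.99).

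Among the head genes, Atp5b, which encodes the catalytic beta subunit, was at 389, 494 and 364 CPM, with ratios of 1.27 (1.17 to 1.38) and 0.937 (0.857 to 1.03). The alpha subunit gene Atp5a1 was at 202, 312 and 225 CPM, 1.55-fold higher at day 1 (1.38 to 1.74). The stalk genes Atp5c1 and Atp5d were at 319, 381 and 396 CPM and at 315, 383 and 374 CPM. Atp5e, the smallest part of the stalk, differed more, at 306, 710 and 579 CPM, with a day 1 ratio of 2.32 (2.12 to 2.55). Of the other 10, Atp5l, a dimer interface subunit, was at 456, 854 and 766 CPM. Atp5h, of the side stalk, was at 362, 698 and 707 CPM and kept its day 1 level at day 5.

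**Figure D2:**
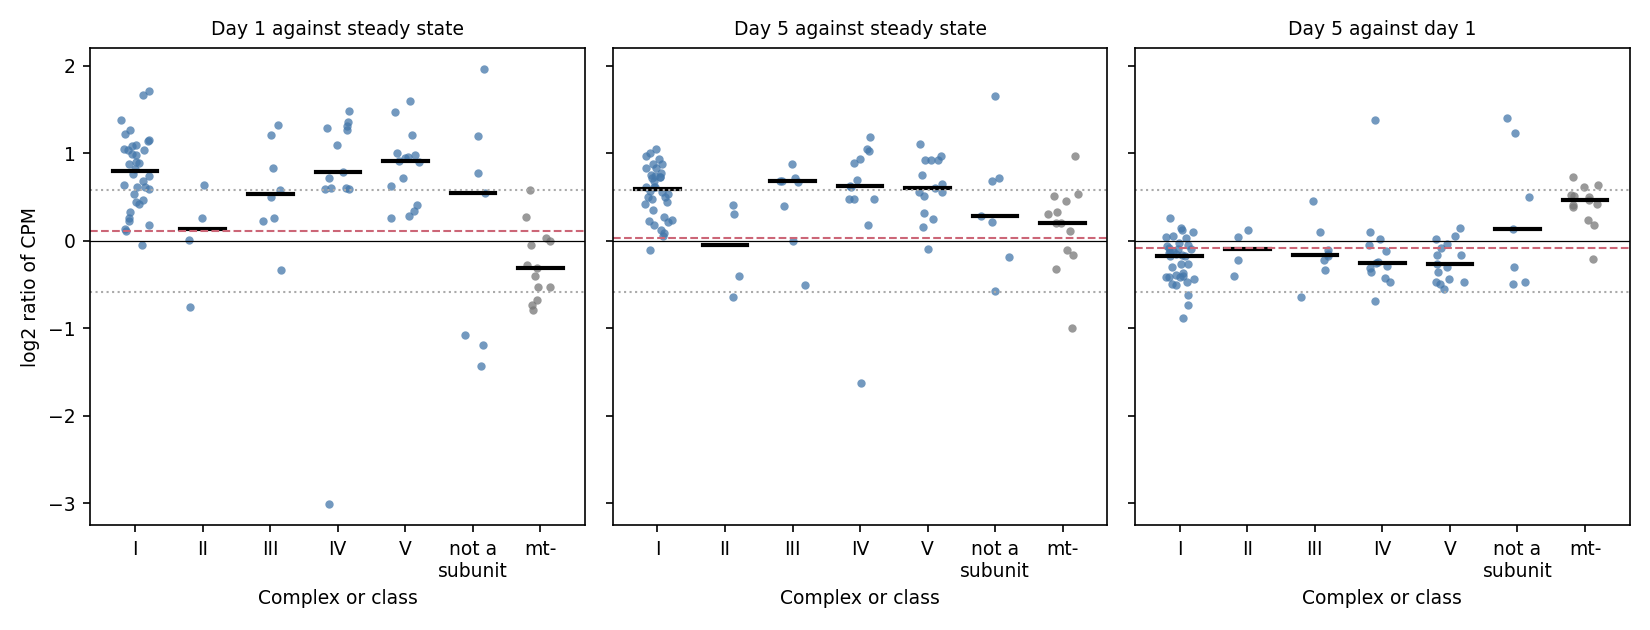
The log2 ratio of CPM for each of the 83 nuclear genes (blue points, by complex or as not a subunit) and the 13 mt- encoded subunits (grey points) in each of the 3 comparisons. Black bars are medians, the red dashed line is the median of all 7196 genes and the dotted lines mark 1.5-fold; the points at day 1 against steady state lie mostly above the upper dotted line for complexes I, IV and V and mostly below 0 for the mt- genes, and the low point of complex IV is Cox6b2.

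Within a complex, the genes differed in how far they moved. Over the 73 subunits past 50 CPM the SD of the log2 ratio at day 1 was 0.47. By complex it was 0.44 in complex I (35 genes), 0.59 in complex II (4), 0.55 in complex III (8), 0.35 in complex IV (11) and 0.41 in complex V (15). The value of complex IV leaves out Cox6b2, which is below 50 CPM. At day 5 the SD over all 73 was 0.37, with complex I at 0.29 and complex IV at 0.31. Among small subunits not yet described, Cox5b was at 280, 684 and 537 CPM and Cox7b at 137, 329 and 279 CPM in complex IV. In complex I, Ndufc1 was at 101, 265 and 187 CPM and Ndufa8 at 141, 338 and 258 CPM. All 4 had the same order, with day 1 highest and steady state lowest.

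Subunit c of the ATP synthase, the protein of the rotating membrane ring, is encoded by 3 genes whose mature products are identical, and the 3 differed in pattern. Atp5g1 was at 234 CPM in steady state (212 to 259), 652 CPM on day 1 (635 to 670) and 446 CPM on day 5 (428 to 464), 2.78-fold higher at day 1 (2.51 to 3.09). Atp5g3 was at 60.4, 182 and 130 CPM, 3.02-fold higher at day 1 (2.47 to 3.74). Atp5g2 was at 316, 420 and 466 CPM, 1.33-fold at day 1 (1.21 to 1.46) and 1.47-fold at day 5 (1.34 to 1.62). The highest of the 3 was thus Atp5g2 in steady state and at day 5 and Atp5g1 at day 1. Reads that match more than 1 of these genes or their pseudogenes may have been dropped or split, so their levels are less certain than their patterns across libraries.

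Complex IV has isoforms that are known to mark tissues or low oxygen, and these stayed low. Cox4i2, a form linked to lung and to hypoxia, had 0, 24 and 10 UMIs in the 3 libraries. The UMIs of Ndufa4l2, a form induced in hypoxia, were 0, 11 and 2. The floor of 3 counts is 1.81 CPM in steady state, and no fold is given. Cox6a2, a form of heart and skeletal muscle, had 7, 17 and 34 UMIs, while its general partner Cox6a1 was at 479, 828 and 668 CPM. Cox8b, another muscle form, had no UMI in any library, as did Cox7b2 and Cox8c. Cox7a1, of heart and muscle, was at 7.85, 19.5 and 12.1 CPM.

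Cox6b2, known as the testis form of Cox6b, was the lowest of the subunits by ratio at both times. It was at 21.1 CPM in steady state (14.7 to 29.4), 2.64 CPM on day 1 (1.63 to 4.03) and 6.88 CPM on day 5 (4.87 to 9.44), from 35, 21 and 38 UMIs. It was 8.01-fold lower at day 1 (4.54 to 14.5) and 3.07-fold lower at day 5 (1.88 to 4.99), although its UMIs in steady state lay in only 27 of 728 cells. Cox6b2 passed the 10 CPM minimum only through steady state, so it had to be lower in the other libraries. Its general partner Cox6b1 was higher after crush, at 474, 783 and 659 CPM.

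The genes named like subunits that are not subunits showed no common direction. Cox7a2l, which resembles Cox7a2 but encodes a factor that joins complexes III and IV into supercomplexes, had the clearest difference of these. It was at 529 CPM in steady state (494 to 565), 197 CPM on day 1 (187 to 207) and 464 CPM on day 5 (446 to 482). Day 1 was 2.69-fold lower than steady state (2.47 to 2.92), and day 5 was 2.36-fold higher than day 1 (2.21 to 2.51) and 1.14-fold lower than steady state (1.05 to 1.23). Cox7a2, in contrast, was highest at day 1 and still 2.29-fold above steady state at day 5. C57BL/6 mice are known to carry a shortened form of this protein.

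The lower level on day 1 was also seen in the share of cells with a UMI of Cox7a2l. With every cell thinned to 1000 UMIs, 33.4% of steady-state cells (29.7 to 37.2), 16.3% of day 1 cells (14.9 to 17.8) and 32.4% of day 5 cells (30.2 to 34.6) had one. Without thinning the shares were 47.1%, 30.5% and 51.5%. Thinned shares for Cox5a were 16.5%, 36.2% and 28.6%, and those for Atp5g1 16.9%, 43.1% and 32.5%, so these genes differed over many cells. Background from free RNA was not measured, and no cell type that lacks these genes was compared.

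The other 6 genes were low. Ndufaf3, an assembly factor of complex I, was at 13.9, 54.0 and 43.8 CPM, 3.89-fold higher at day 1 (2.56 to 6.20). Ndufaf2, Ndufaf4 and Ndufaf6, also assembly factors, lay between 4.83 and 31.0 CPM with log2 ratios at day 1 from 0.54 to 1.19. Ndufaf7, a methyltransferase that modifies a core subunit during assembly, was at 30.8, 14.6 and 20.6 CPM, 2.11-fold lower at day 1 (1.49 to 2.96). Atp5sl was at 10.9, 4.77 and 12.7 CPM, 2.28-fold lower at day 1 (1.22 to 4.09) from 18 UMIs in steady state. Around the 10 CPM minimum, Ndufaf6 reached 11.1 CPM and Ndufaf5 8.54 CPM. Atp5s, Ndufaf1, Ndufaf5 and the 6 complex IV isoforms without enough UMIs make up the 9 genes that did not pass.

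**Figure D3:**
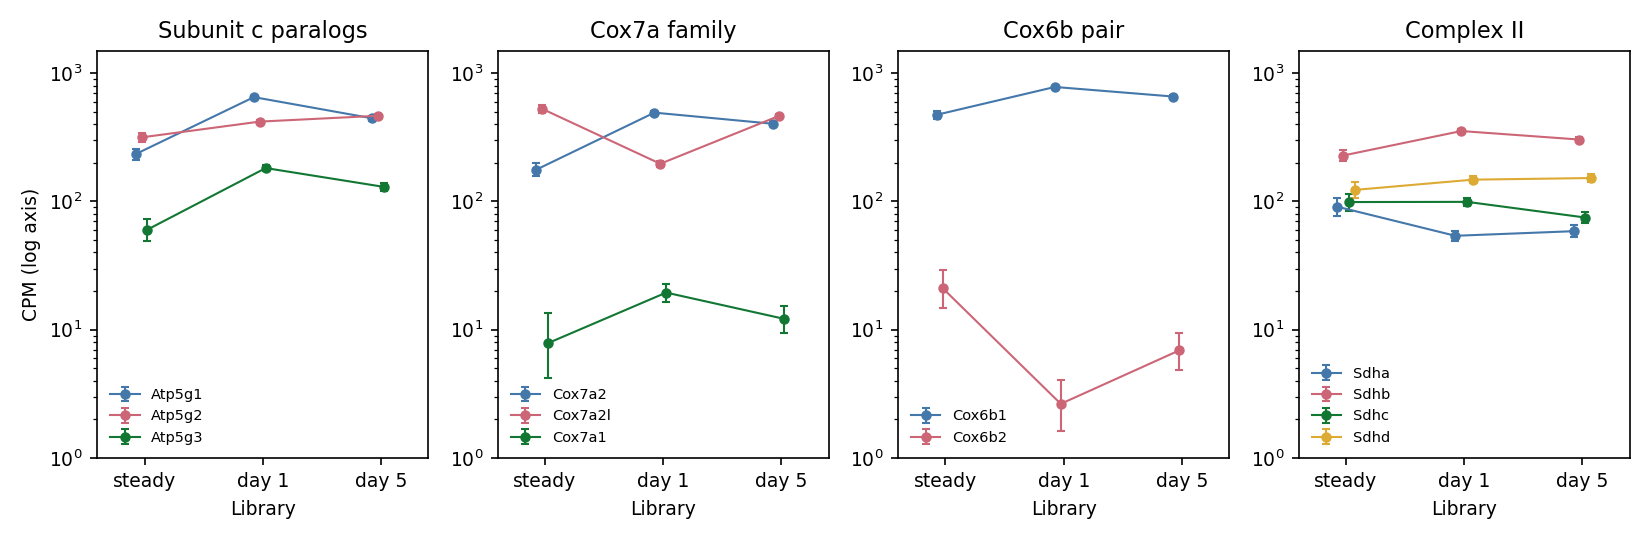
CPM on a log axis of the subunit c genes, the Cox7a family, the Cox6b genes and the 4 complex II genes in each library, with exact 95% Poisson intervals; lines only join the values of a gene. Cox7a2l and Cox6b2 are lowest at day 1 while their relatives Cox7a2 and Cox6b1 are highest there, and Sdha and Sdhb move in opposite directions. Cox6b2 passed the 10 CPM minimum only through steady state.

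Promoters were searched for short motifs of factors that are known to act on respiratory chain genes, since many of the members were higher together. The windows run from 250 bases before to 50 bases after each RefSeq start on GRCm38.p6, and both strands were searched. Of the subunits, 65 had a promoter in the table, beside 27025 genes in all. The NRF1 motif, the palindrome of 10 letters in capitals in the Cox6a1 window below, was found in 5 of the 65 (7.69%) and 1.07% of all genes. The ETS motif of the GABPA type (CCGGAAG) was found in 16 (24.6%) and 9.93%, YY1 (AAGATGGC) in 10 (15.4%) and 3.19%, and the ERR motif (TCAAGGTCA) in 2 (3.08%) and 0.466%. Any of the first 3 was present in 28 subunits (43.1%) and 13.4% of all genes. Here all genes means every gene with a promoter in the table, whatever its level, while the subunits had all passed 10 CPM. Shares over the other genes past 10 CPM were not computed, so these shares do not set the subunits apart from expressed genes in general. The end of the ETS motif and the start of the YY1 motif share the letters AAG, so a stretch can match both, which occurred in none of the members. A match is a description and not a bound site. By complex, NRF1, ETS or YY1 matched 12 of 32 genes with a promoter in complex I, 2 of 3 in complex II, 3 of 5 in complex III, 3 of 11 in complex IV and 8 of 14 in complex V.

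Windows of 3 genes are shown as examples of a match to each of the rarer motifs and of a gene with none. They are 180 bases long, run 5′ to 3′ on the strand of the gene, which is the minus strand for all 3, and leave out bases in exons of the gene. Capitals mark the motif. Atp5g3, 3.02-fold higher at day 1, has an ERR match on the opposite strand at position -52 from its start, in chr2:73911327-73911506. Cox6a1, 1.73-fold higher at day 1 (1.60 to 1.86), has an NRF1 match at position -162, in chr5:115348982-115349161, a window that overlaps an exon of a long noncoding RNA on the other strand. It also has an ETS match at position -16, outside the bases printed. Cox7a2l, 2.69-fold lower at day 1, has none of the 4 motifs in its window of 300 bases, part of which is chr17:83514334-83514513, inside the span of the gene and outside its exons in the GENCODE annotation. Whether motifs go with direction was not tested, and Atp5sl, also lower at day 1 (2.28-fold), has a YY1 match.
Atp5g3: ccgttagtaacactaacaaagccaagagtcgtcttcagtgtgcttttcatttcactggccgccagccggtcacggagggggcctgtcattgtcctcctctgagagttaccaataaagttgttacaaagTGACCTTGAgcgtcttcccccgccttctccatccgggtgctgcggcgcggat
Cox6a1: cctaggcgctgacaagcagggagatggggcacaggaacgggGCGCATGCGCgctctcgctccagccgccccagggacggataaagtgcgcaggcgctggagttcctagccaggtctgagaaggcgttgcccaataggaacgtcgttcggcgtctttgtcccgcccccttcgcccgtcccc
Cox7a2l: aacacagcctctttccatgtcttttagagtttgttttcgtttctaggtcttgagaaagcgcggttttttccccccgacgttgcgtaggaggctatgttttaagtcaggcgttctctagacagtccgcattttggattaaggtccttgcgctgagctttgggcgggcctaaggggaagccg

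The mt- encoded subunits are transcribed inside the mitochondrion and do not pass through nuclear promoters. At day 1 the complex I genes among them summed to 1149 CPM against 1819.5 CPM in steady state, 1.58-fold lower (1.52 to 1.65). mt-Nd1 was at 947, 571 and 761 CPM and mt-Nd4 at 654, 409 and 587 CPM. Both were over 1.5-fold lower at day 1, by 1.66-fold (1.56 to 1.76) and 1.60-fold (1.49 to 1.71), and lay in between at day 5. mt-Nd2 was at 173, 120 and 187 CPM.

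mt-Cytb, the only mitochondrial subunit of complex III, was at 578, 403 and 540 CPM, 1.44-fold lower at day 1 (1.33 to 1.54). In complex IV, mt-Co1 was at 744, 616 and 854 CPM, mt-Co3 at 441, 334 and 553 CPM, and mt-Co2 at 201, 201 and 288 CPM. mt-Atp6, of complex V, was at 911, 733 and 1127 CPM, so it was highest at day 5 (1.24-fold against steady state, 1.17 to 1.31). Of the remaining genes, mt-Nd5 was at 29.6, 35.8 and 40.5 CPM and mt-Nd3, mt-Nd4l, mt-Nd6 and mt-Atp8 had at most 11 UMIs each in steady state. With 9, 25 and 15 UMIs, mt-Nd6 had a day 1 ratio of 0.578, and its interval (0.261 to 1.41) includes 1. Over all 13, the day 5 sum was 1.44-fold that of day 1 (1.42 to 1.47).

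The balance of nuclear to mitochondrial subunit RNA, over the complexes that hold both, was 3.34 in steady state (3.26 to 3.43), 7.87 at day 1 (7.77 to 7.97) and 4.86 at day 5 (4.80 to 4.92). A ratio within a library does not depend on how libraries are scaled, and it shows unequal change without saying which side moved. In complex I the balance went from 3.01 to 8.15 and 5.15, in complex III from 2.64 to 5.76 and 4.24, in complex IV from 3.27 to 6.97 and 4.28, and in complex V from 4.57 to 9.97 and 5.63. The order of the libraries was the same in all 4 complexes.

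Per cell, the nuclear share moved as a whole. Thinned to 1000 UMIs per cell, which left 638, 2496 and 1777 cells and removed 90, 297 and 282 shallower ones, nuclear subunits made up a median of 1.5% of UMIs in steady state, 2.8% at day 1 and 2.4% at day 5. The interquartile ranges were 1.1% to 2.0%, 2.2% to 3.4% and 1.9% to 3.0%, so those of steady state and day 1 did not overlap. The mt- genes had mean shares of 0.457%, 0.377% and 0.531%. The variance of the nuclear UMIs per thinned cell was 3.78, 3.07 and 3.09 times their mean, so the counting intervals understate the spread between cells.

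**Figure D4:**
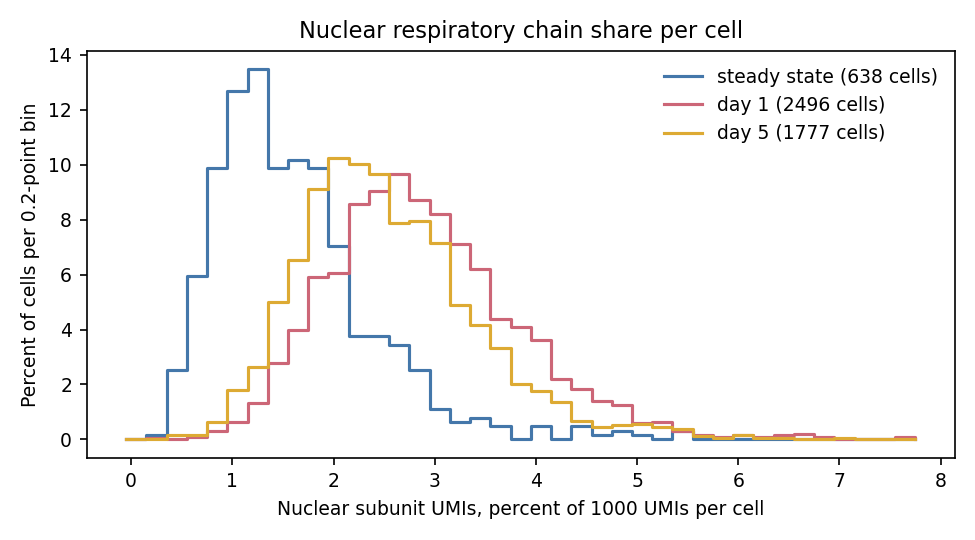
Share of each cell's UMIs in nuclear respiratory chain subunits, after thinning to 1000 UMIs per cell, as the percent of each library's cells in bins of 0.2 percentage points. The steady-state curve lies left of the others, around its median of 1.5%, and the day 1 curve lies farthest right, around 2.8%.

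Depth differed between the libraries, so each was split by UMIs into a lowest, a middle and a highest class of near-equal size. From the lowest to the highest class, the nuclear sum was 17552, 14504 and 16953 CPM in steady state. It was 33798, 28185 and 26013 CPM at day 1 and 29296, 25315 and 23264 CPM at day 5. The classes were set within each library and do not match depth between libraries. Median UMIs were 1280, 1167 and 1096 in the lowest class and 3034.5, 4496 and 4235.5 in the highest. The nuclear sum at day 1 against steady state was 1.93-fold in the lowest class, 1.94-fold in the middle and 1.53-fold in the highest, and at day 5 it was 1.67-fold, 1.75-fold and 1.37-fold. The mt- ratio at day 1 was 0.918, 0.761 and 0.676 from the lowest to the highest class. At day 5 it was 1.44, 1.15 and 0.907, so the direction of the mt- genes at day 5 differed between the classes. Cox7a2l at day 1 stayed between 0.336 and 0.395 in all classes.

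Cells with at least 2 UMIs of the Cd209 lectin list (Cd209 lectins and Fcna, markers of resident macrophages of the outer nerve sheath) held 33.1% of steady-state cells, 1.83% of day 1 cells and 5.05% of day 5 cells. This is a range of marker counts and not a cell type, and 109, 56 and 166 cells lay near the line. In steady state these 241 cells had 20743 CPM of nuclear subunits and the other 487 had 13885 CPM, a ratio of 1.49 (1.46 to 1.53), with median UMIs of 2376 and 2207. All 5 complexes shared this direction in steady state, with ratios from 1.40 in complex V to 1.56 in complex IV. The mt- genes were 1.27-fold higher in them (1.21 to 1.33) and Cox7a2l 0.883-fold (0.763 to 1.02). At day 1 and day 5 the nuclear ratio between the sides was 1.08 (1.04 to 1.11) and 1.10 (1.07 to 1.12).

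Within each side of that line, the nuclear subunits were again higher after crush. Among cells at or above it the day 1 ratio was 1.44 (1.39 to 1.50), and among those below it was 2.0 (1.96 to 2.03). At day 5 the ratios were 1.30 (1.26 to 1.34) and 1.77 (1.74 to 1.80). The mt- ratio at day 1 was 0.982 (0.902 to 1.07) above the line and 0.795 (0.770 to 0.820) below. Complex II, which had stood at 1.21-fold over all cells at day 1, was at 1.08-fold (0.853 to 1.36) above the line and 1.42-fold (1.29 to 1.56) below. Complex III at day 1 was close to complex II above the line, at 1.12-fold (0.982 to 1.28), and at 1.80-fold (1.71 to 1.91) below. Cells below the line can hold 1 lectin UMI, and the lectin markers summed to 72.9 CPM in them in steady state. Cells at or above the line were not alike between libraries either. Their median lectin UMIs were 13, 4 and 4.5, and their monocyte markers summed to 27.9, 725 and 327 CPM. The ratios within a side therefore do not compare the same kind of cell, and the part of this mixing was not tested.

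**Figure D5:**
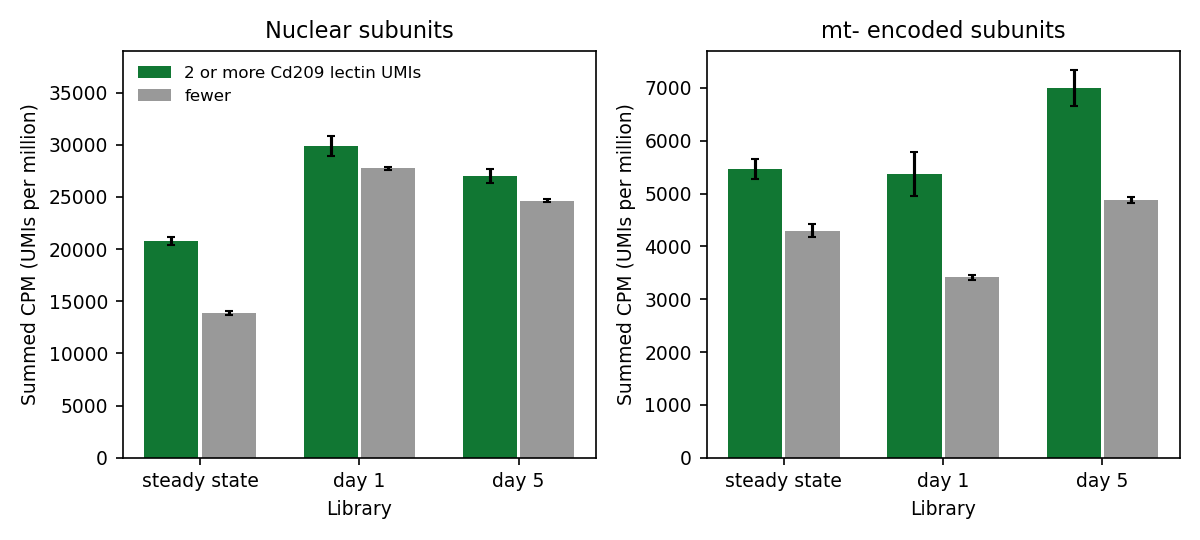
Summed CPM of the nuclear subunits (left) and of the mt- encoded subunits (right) in cells with at least 2 Cd209 lectin UMIs (green) and with fewer (grey) in each library, with bars from 0 and exact 95% Poisson intervals. In steady state the green nuclear bar stands at 20743 CPM above 13885 CPM for the grey bar, while the green and grey nuclear bars at day 1 and day 5 are close.

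Cells with at least 3 UMIs of the monocyte list numbered 4, 1399 and 340, with median UMIs at day 1 of 3357 against 1803.5 in the rest. At day 1 they had 26712 CPM of nuclear subunits against 29373 CPM in the other cells, a ratio of 0.909 (0.902 to 0.917), and their mt- ratio was 0.718 (0.701 to 0.736). Among the cells below this line, 1394 at day 1 and 724 in steady state, the nuclear ratio was 1.81 (1.79 to 1.84) and the mt- ratio 0.881 (0.856 to 0.906). Cells below the line can still hold monocyte UMIs, and the monocyte markers summed to 278 CPM in them on day 1 against 7.91 CPM in steady state, with 439 cells of day 1 near the line. The part of the monocyte markers in these ratios was not tested. Cox7a2l was 2.86-fold lower at day 1 among those cells (2.57 to 3.18).

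Genes outside the name rule that work with the chain were read from lists of known members. The counts at day 1 are to be read against the 29.9% of all genes that were at least 1.5-fold higher and the 24.5% that were lower. Of 8 measured subunits, carriers and regulators, 5 were at least 1.5-fold higher at day 1 and none lower, with a median log2 ratio of 0.70. Cycs, the gene of cytochrome c itself, was at 115, 449 and 196 CPM, 3.90-fold higher at day 1 (3.37 to 4.53) and thus above all of the subunits. 2010107E04Rik, which encodes a small proteolipid of the ATP synthase, was at 45.9, 139 and 107 CPM. Atpif1, the inhibitor that stops the ATP synthase from running backwards, was at 452, 479 and 530 CPM, with ratios of 1.06 (0.981 to 1.15) and 1.17 (1.08 to 1.27).

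Of 31 measured assembly factors outside the rule, 11 were at least 1.5-fold higher at day 1, a share near that of all genes, and 4 were lower, with a median of 0.37. Cox17, which delivers copper to complex IV, was at 118, 351 and 214 CPM, 2.97-fold higher (2.56 to 3.45). Higd1a, a hypoxia-induced factor of the inner membrane, was at 82.7, 259 and 128 CPM, 3.14-fold higher (2.64 to 3.76). Surf1, needed to assemble complex IV, was lower at day 1, at 51.3, 29.8 and 50.7 CPM (1.72-fold, 1.33 to 2.22), as was Higd2a at 148, 97.8 and 140 CPM.

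The citric acid cycle, which feeds the chain with electrons, stood near all genes. Of 17 genes, 3 passed 1.5-fold upwards and 4 downwards at day 1, with a median of 0.19 beside 0.12 over all genes. Mdh2 was at 156, 351 and 190 CPM. Idh3g was at 107, 44.6 and 62.6 CPM, 2.4-fold lower at day 1 (1.99 to 2.88), and Idh2 at 181, 82.3 and 86.7 CPM, 2.20-fold lower (1.91 to 2.53).

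Glycolysis and lactate export genes differed far more than the chain at day 1 and came nearer to it at day 5. Of 16, 13 passed 1.5-fold upwards at day 1 and none downwards, with a median of 2.27, and at day 5 the median was 0.81. Gapdh was at 343, 1229 and 602 CPM. The glycolysis sum was 4.51-fold that of steady state at day 1 and 1.71-fold at day 5, beside 1.71-fold and 1.52-fold for the nuclear subunits. Pgk1 was at 18.1, 180 and 15.9 CPM.

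Other mitochondrial and housekeeping machinery moved in part with the chain. The mitochondrial ribosomal proteins had medians of 0.68 at day 1 (40 of 73 at least 1.5-fold higher) and 0.34 at day 5 (21 of 73). Import genes of the Tomm and Timm families had medians of 0.66 (12 of 21) and 0.36 (7 of 21), and the proteasome 0.86 (28 of 37) and 0.33 (10 of 37). Cytosolic ribosomal proteins had medians of 0.15 (5 of 85) and 0.33 (10 of 85). Over all genes the medians were 0.12 and 0.03, with 29.9% and 22.2% at least 1.5-fold higher. The day 5 counts of the mitochondrial ribosomal proteins and the proteasome lay near that share, and that of the cytosolic ribosomal proteins below it. At day 1 the chain's median of 0.74 thus lay among those of these lists, and at day 5 its median of 0.60 was above theirs, a difference that was not tested. The 7 measured regulators of mitochondrial biogenesis had a median of -0.32 at day 1.

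Of 10 measured genes of mitochondrial fusion, fission and mitophagy, 4 were at least 1.5-fold higher at day 1 and 2 lower. Bnip3, a mitophagy receptor induced by low oxygen, was at 22.3, 120 and 32.8 CPM, 5.37-fold higher at day 1 (3.87 to 7.67). Pink1, the kinase that marks damaged mitochondria, was 3.8-fold lower at day 1 (2.88 to 4.99), at 59.2, 15.6 and 34.6 CPM. Of 12 genes for mitochondrial antioxidant enzymes, uncoupling and carrier or channel proteins, 4 were at least 1.5-fold higher at day 1 and none lower. Among the antioxidant enzymes, Sod2 was at 103, 342 and 157 CPM and Prdx5 at 375, 1690 and 1050 CPM, 4.51-fold higher at day 1 (4.16 to 4.89).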

How the data were processed

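The deposited tables hold whole-number UMI counts per gene and cell barcode for each sample, not normalized; per the submitters' processing notes the authors used Cell Ranger 2.0.2 and mm10. How barcodes were called and free RNA handled was not given in the sources used here. A deposited table that pools the libraries was not used. Barcodes with at least 200 genes and at most 10% mt- UMIs were kept, which removed 3, 3 and 0. No doublet caller was run, and doublets may remain. Counts were summed over cells and scaled to CPM. Ratios have exact conditional binomial intervals, levels exact Poisson intervals and shares exact Clopper-Pearson intervals (scipy 1.17.1, numpy 2.4.6, pandas 2.3.3), checked on simulated counts. At 3 counts, the floor was 1.81 CPM for steady state, 0.377 CPM for day 1 and 0.543 CPM for day 5. Reads without strand or shared by near-identical genes can be misassigned before deposit. 3' end capture does not compare levels between genes per length.

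The genes and lists were chosen with earlier results of these data known. Genes were named by rule: per complex, the 2 highest and 2 lowest ratios against steady state at each time among subunits past 50 CPM, and the highest level, with all complex II genes, isoform partners and mt- genes, and up to 2 highest and 2 lowest of each list. The genes that are not subunits were added as a whole set, and others outside the rule (Cox5b, Cox7b, Atp5e, Ndufc1, Ndufa8, Ndufs1 and the few genes past a line named beside a count) after their values were seen. Trac and Trbc2 of the T cell list and 1810027O10Rik were not matched by name. RefSeq promoters matched 71 of 83 members by symbol, and GENCODE transcript lengths on GRCm38 (the longest transcript per symbol) matched all 83.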

Additional observations from a re-analysis of the deposited data

How the results depend on the processing

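No paired analysis was possible because each condition has 1 library. The median log2 ratio of the 83 genes at day 1 against steady state (0.74) was 0.48 with median-of-ratios scaling, 0.78 without cells with cycling markers, 0.99 without cells with at least 2 Cd209 lectin UMIs, 0.88 with cells thinned to 1000 UMIs, 0.80 with cells weighted equally, 0.77 over members past 50 CPM and 0.72 over those with at least 1 UMI in both libraries. At day 5 against steady state (0.60) it was 0.66 without mt- and ribosomal protein UMIs in the totals, 0.48 with median-of-ratios scaling, 0.58 without the 5% of cells with the most UMIs, 0.81 without lectin cells, 0.68 thinned, 0.62 with equal weights and 0.57 over members with at least 1 UMI. For day 5 against day 1 (-0.17), the same totals gave -0.13, median-of-ratios -0.033, thinning -0.23 and equal weights -0.22. The summed mt- log2 ratio at day 1 (-0.45) was -0.71 with median-of-ratios, -0.33 without lectin cells, -0.28 thinned and -0.39 with equal weights. At day 5 against steady state (0.08) it was 0.13 with the reduced totals, -0.042 with median-of-ratios, where its sign turned, 0.18 without lectin cells, 0.21 thinned and 0.19 with equal weights. For day 5 against day 1 (0.53) these were 0.57, 0.67, 0.49 thinned and 0.59 with equal weights. The count of members at least 1.5-fold higher at day 1 (55) was 36 with median-of-ratios. That scaling also lowered the median over all genes, from 0.12 to -0.14 at day 1 and from 0.03 to -0.09 at day 5. At day 5 (42) it ran from 29 to 56. The cause of these shifts was not tested, other than the scaling's own shift of all genes. Over the complex sums and named genes in all settings, 314 values moved past their counting interval and 2410 did not. No gene called at 1.5-fold turned direction. The medians, mt- sums and counts of members given above are not part of that tally. Precision is limited most by the steady-state library, with the fewest UMIs.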
